A study of Rattus norvegicus with 6 samples.

Results

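The genes of oxidative phosphorylation were followed in the rat jejunum, in arrays of a control group and of a group stressed by heat and shaking for 3 days (S3d). A gene was a member when the rat RefSeq symbol of a probe's accession began with Nduf, Uqcr, Atp5 or Cox followed by a number from 4 to 8, or was Sdha, Sdhb, Sdhc or Sdhd. This rule used no measured value. It found 79 genes, carried by 91 of the 41012 probes, among 13837 genes named on the array, and the probe with the highest mean log2 signal stood for each gene. The members were 31 genes of complex I, 5 complex I assembly factors, 4 genes of complex II, 8 of complex III, 16 of complex IV and 15 of ATP synthase. Male Sprague-Dawley rats aged 6 weeks, weighing 200 ± 20 g and kept at 25°C, were used in both groups, and the S3d rats were also warmed to 35°C and shaken (0.1 g) for 2 h per day on 3 days. Each group had 3 samples on 1-colour Agilent arrays, each sample held RNA of 3 rats mixed together, and the labels give 10 rats per group. The methods of the study give fewer rats per group, so that pools of 1 group may share rats, and the arrays may then not be independent replicates. Whole jejunum was used, so that fewer cells of a type and less RNA per cell cannot be told apart.

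Oxidative phosphorylation takes place on the inner mitochondrial membrane. Complex I takes electrons from NADH and complex II from succinate, and both pass them to ubiquinone, from which they reach complex III, cytochrome c, complex IV and finally oxygen. Complexes I, III and IV pump protons as they do so, and ATP synthase lets the protons flow back to make ATP. The genes on the array are the nuclear subunits, which are made in the cytosol and brought into the mitochondrion, where they join a few subunits encoded by mitochondrial DNA. Absorptive cells of the small intestine use much ATP for the transport of nutrients and ions.

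Of the 79 members, 76 were well above background on all 6 arrays and 77 could be tested. Cox8b and Cox8c were above background on no array and were not tested, and Uqcrq was above background only on the S3d arrays. Each group had a slide of its own, and 450 days lay between the scans, so that slide and group cannot be told apart. The 75th percentile of the signal was 415 to 430 on the arrays labelled control and 1458 to 1558 on those labelled S3d, and levels are therefore log2 signals from which the 75th percentile of that array was subtracted. A positive difference means a higher level on an array whose scanner file is labelled S3d. The normalized table that the authors deposited carries the group labels the other way round for the same arrays (Spearman's rho 1.00 between each column and the array of the other group with the same number, and 0.943 to 0.953 with the array of its own label), so that the direction given here opposes that of the table and of the study. For brevity, the arrays are called control arrays and S3d arrays by the labels of the scanner files, no sample was reassigned, and which labels are right was not tested, so that every direction below would turn if those of the table were. P-values measure the spread between these pooled samples.

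By this scale, 44 of the 77 tested members (57.1%) were lower and 10 (13.0%) were higher on the S3d arrays, and 23 were not called, where a call needs a limma p below 0.05 after Benjamini-Hochberg adjustment and a 1.5-fold difference. Among the 10 is Uqcrq, which entered the test only through the S3d arrays, and with a filter on all 6 arrays 9 were higher. Of all 31422 probes tested, 23.2% were called lower and 29.3% higher. The median log2 fold change of the members was -0.69, against 0.09 for all tested probes. Without scaling between arrays the direction turned, with 62 members higher (91.1% of all probes), none lower and a median of 1.15 (all probes 1.93), and after quantile normalization 13 were higher, 10 were lower and the median was -0.06 (all probes 0.01). By that last scale, 24.2% of all probes were higher and 24.3% lower. Relative to the median of all probes, the members therefore stood 0.78 below it with 75th percentile scaling, 0.07 below it with quantile normalization and 0.13 below it with cyclic loess, but 0.48 above it with normexp background correction. Control and S3d levels did not overlap in 70 of the 77 members, a separation also seen in 78.9% of all tested probes.

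**Figure D1:**
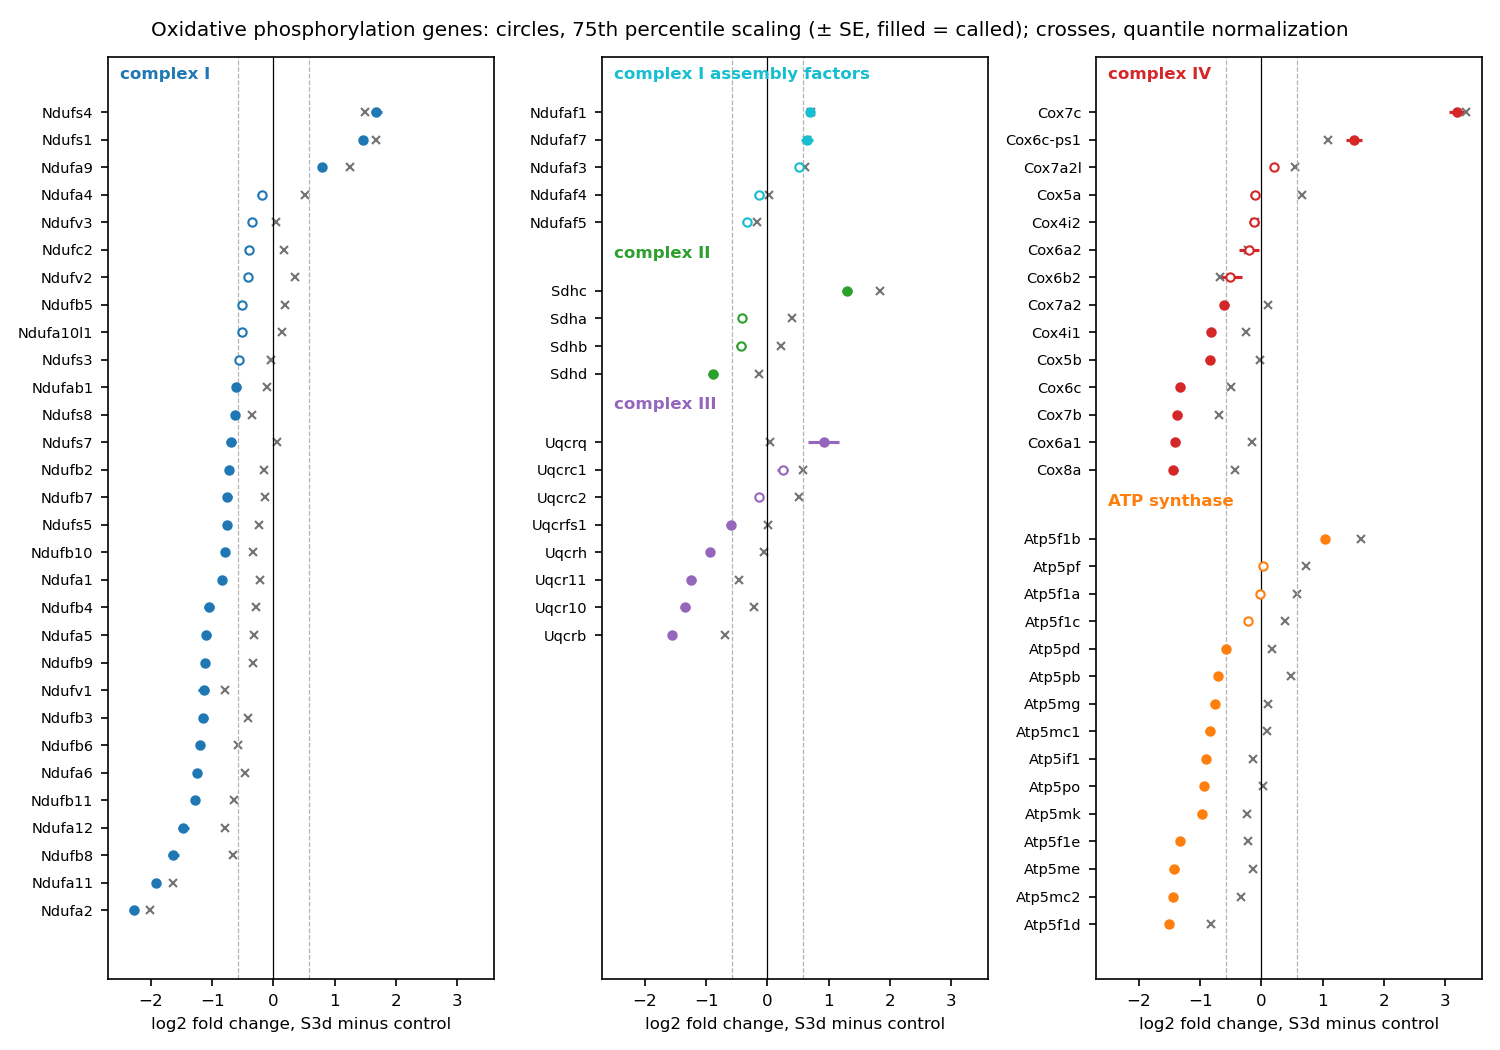
Log2 fold change (S3d minus control, x axis) of 76 of the 77 tested members by complex: circles with standard errors are values relative to the 75th percentile of each array (3 arrays per group, filled where called), crosses are values after quantile normalization, and dashed lines mark 1.5-fold. The crosses lie to the right of the circles for most members, while Cox7c and Ndufa2 stay at the ends under both.

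The members were among the brightest probes of the array, and the difference between the groups moved with brightness. Over all tested probes, the median log2 fold change went from 1.29 in the dimmest to -0.49 in the brightest of 10 equal bins of mean signal. The brightest bin held 64 of the 77 members, with a median of -0.80. When this bin was cut into 5, the brightest of these held 45 members. There, 68.0% of all 629 probes were called lower with a median of -0.88, and 35 of the 45 members were called lower with a median of -0.93. In the other 4 of these 5, from bright to dim, the members' medians were -0.56 (11 members), -0.074 (4), -0.63 (3) and -2.28 (1), against -0.51, -0.42, -0.33 and -0.25 for all probes there. The 5 members in the next bin below the brightest of the 10 had a median of 0.52, against -0.16 for all its probes. Across the 77 members (genes, not replicates), the log2 fold change and the mean log2 signal had a Pearson's r of -0.61 and a Spearman's rho of -0.64, with the signal shared between both axes. On the scale without scaling, the 7 spike-in control probes with a log2 signal above 9 on the control arrays had log2 differences of -0.87 to -0.35, while 75 of the 77 members were higher. The part of brightness in the members' differences was not tested.

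**Figure D2:**
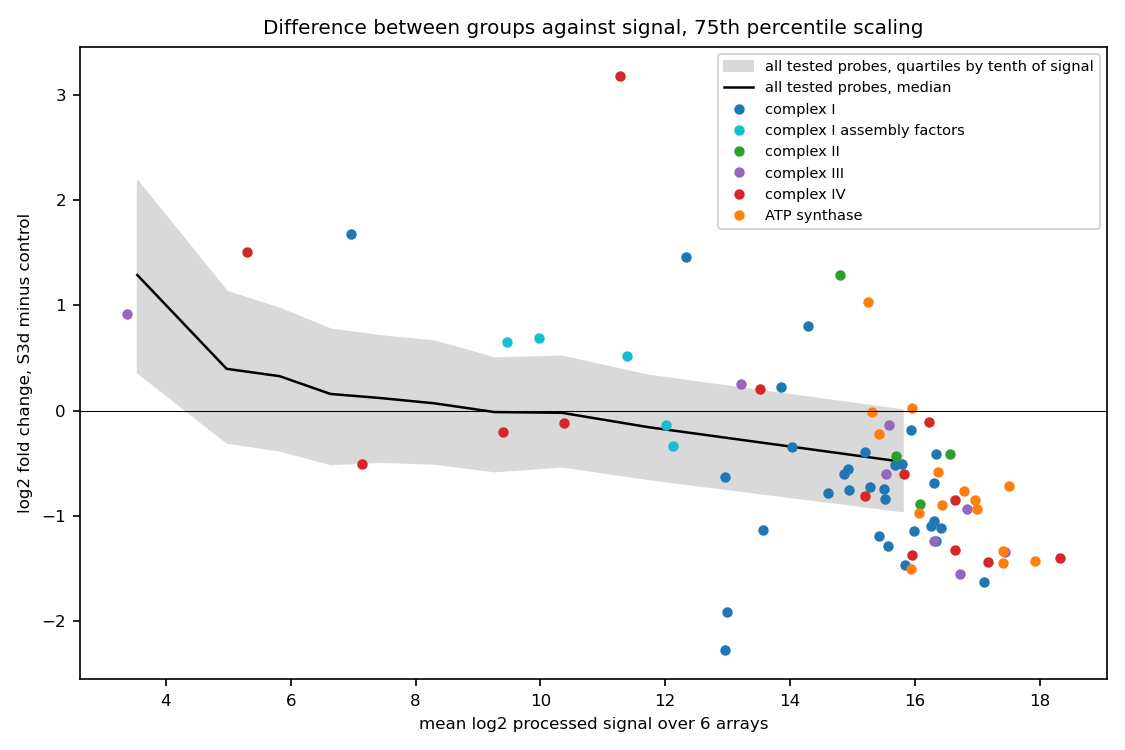
Log2 fold change (S3d minus control, relative to the 75th percentile) against mean log2 processed signal over 6 arrays; points are the 77 members by complex, the black line and grey band are the median and quartiles of all 31422 tested probes in 10 bins of signal. The band falls from left to right, and 64 members lie in the brightest bin.

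A smaller group of members was called in 1 direction under all 4 scalings that bring the arrays to a common level (75th percentile, median, quantile and cyclic loess), and no member was called in opposite directions under any pair of them. There were 7 such members that were higher on the S3d arrays, Cox7c, Ndufs4, Cox6c-ps1, Ndufs1, Sdhc, Atp5f1b and Ndufa9, and 9 that were lower, Ndufa2, Ndufa11, Ndufb8, Uqcrb, Atp5f1d, Ndufa12, Cox7b, Ndufb11 and Ndufv1. These are 9.09% and 11.7% of the 77 members, below the 19.7% and 19.5% of all probes called higher and lower in this way. Complex I gave 3 of the 7 higher and 6 of the 9 lower members. Without scaling between arrays the 7 stayed higher, and 7 of the 9 were above 0 as well.

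**Figure D3:**
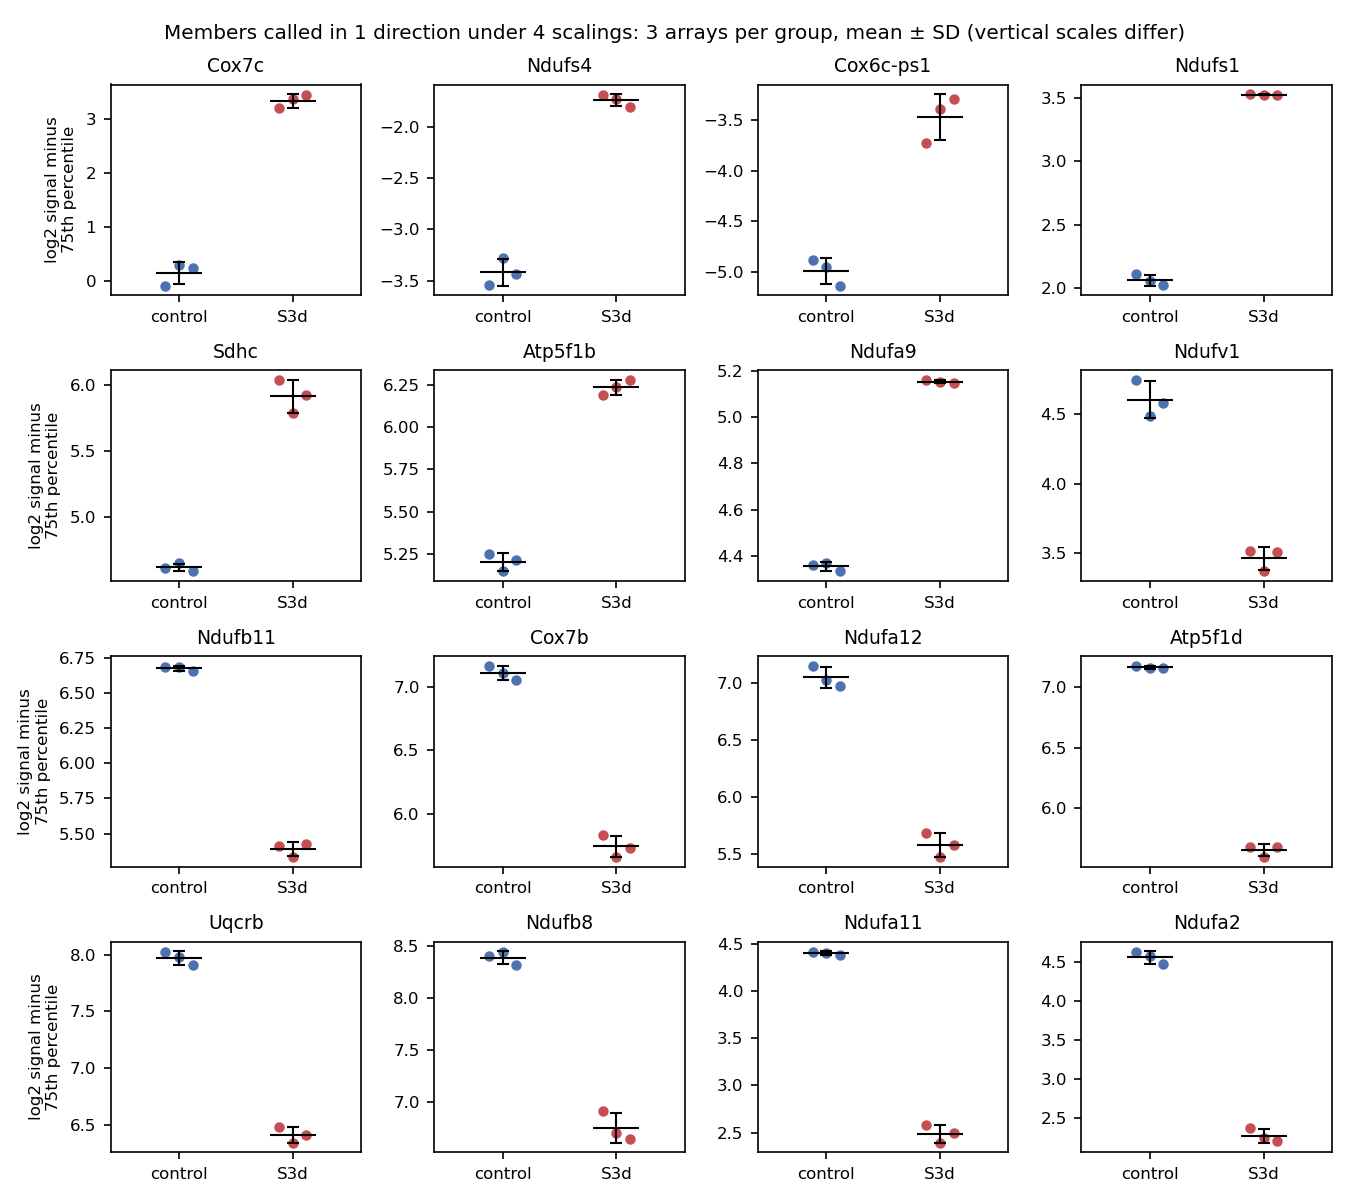
Log2 signal minus the 75th percentile of the array (y axis, a scale of its own in each panel) for the 16 members called in 1 direction under 4 scalings; points are the 3 arrays of each group, bars the mean and SD. In all 16 panels the groups do not overlap, but these members were chosen by calls on the same arrays. The groups also did not overlap in 78.9% of all tested probes.

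Complex I, the NADH dehydrogenase, is the largest of the respiratory complexes. Of its 31 members on the array, 20 were lower and 3 higher, with a median of -0.75. Of all tested probes, 23.2% were lower and 29.3% higher, and of the 629 brightest, 68.0% were lower. After quantile normalization 6 of the 31 members were lower and 4 higher, with a median of -0.22. The core subunits, which carry the flavin and the iron-sulphur clusters and are shared with bacteria, did not move together. Ndufs1, which holds several iron-sulphur clusters of the NADH-oxidising arm, was at 2.11, 2.06 and 2.02 on the control arrays and at 3.53, 3.52 and 3.52 on the S3d arrays. Its S3d values were all above its control values, with a log2 difference of 1.46 (SE 0.058, limma adjusted p = 1.4e-05). Ndufv1, the flavin-binding subunit that takes the electrons from NADH, went the other way, from 4.75, 4.48 and 4.58 on the control arrays to 3.52, 3.37 and 3.51 on the S3d arrays. Its log2 fold change of -1.14 (SE 0.092, limma adjusted p = 0.0001) was called lower under each of the 4 scalings. The partner of Ndufv1 in the same arm, Ndufv2, had -0.41 and was not called, and quantile normalization gave 0.35. Ndufs8 and Ndufs7, which carry the clusters close to ubiquinone, were lower by the 75th percentile at -0.63 and -0.69, but not called after quantile normalization (-0.35 and 0.058). Ndufs3 (-0.56) stayed under 1.5-fold.

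Among the 24 accessory subunits of complex I, which surround the core and are needed to build and hold it, 17 were lower and 2 higher. After quantile normalization 5 were lower and 2 higher, and the median went from -0.81 to -0.26. The sign of the strongest differences did not depend on the 4 scalings. Ndufs4, an accessory subunit of the NADH-oxidising arm whose loss is a known cause of Leigh syndrome, was at -3.54, -3.28 and -3.43 on the control arrays and -1.68, -1.72 and -1.80 on the S3d arrays. The difference of 1.68 (SE 0.088, limma adjusted p = 2.4e-05) on the log2 scale was called, but normexp background correction brought it to -0.064, without a call. Ndufa9, which lies near the ubiquinone site, was at 4.36, 4.37 and 4.33 and 5.16, 5.15 and 5.15 in the same order, a log2 difference of 0.80 (limma adjusted p = 5.8e-05). Ndufa2 had the most negative value of all members, with 4.63, 4.57 and 4.47 on the control arrays and 2.38, 2.24 and 2.21 on the S3d arrays. The log2 fold change of this small subunit of the NADH-oxidising arm was -2.28 (SE 0.078, limma adjusted p = 1.2e-05), and its other probe gave -2.45. Ndufa11, a subunit of the membrane arm, fell from 4.42, 4.41 and 4.39 to 2.58, 2.39 and 2.50, a log2 difference of -1.92 (limma adjusted p = 1.3e-05). Both genes stayed below 0 even without scaling between arrays, at -0.44 for Ndufa2 and -0.071 for Ndufa11, and they were the only members to do so.

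The 10 Ndufb genes encode subunits of the distal part of the membrane arm, and by the 75th percentile 9 of them were lower, none was higher and their median was -1.08. Most of their probes were among the 629 brightest tested, of which 68.0% were called lower, with a median of -0.88. After quantile normalization the median of the Ndufb genes was -0.33 and only Ndufb8 and Ndufb11 were called lower. Ndufb8, whose protein is widely used as a marker of assembled complex I, was at 8.40, 8.44 and 8.32 on the control arrays and at 6.92, 6.70 and 6.64 on the S3d arrays. The log2 difference was -1.63 (SE 0.093, limma adjusted p = 3.1e-05), and the groups were far apart against an SD of 0.063 and 0.15. Ndufb11 was at -1.29 (-0.64 after quantile normalization). Ndufa12, an accessory subunit that joins late in assembly, was at -1.47 and -0.80. Ndufa4, long counted in complex I and now placed in complex IV, was at -0.19 (limma adjusted p = 0.048), which is under 1.5-fold, and its sign turned after quantile normalization (0.52).

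Ndufc2, a subunit of the membrane arm, had 2 probes on the array, and they differed. The brighter probe, which stands for the gene, was at 5.85, 5.84 and 5.87 on the control arrays and 5.53, 5.43 and 5.43 on the S3d arrays, a log2 difference of -0.39, under 1.5-fold, that turned to 0.17 after quantile normalization. The dimmer probe was at -3.18, -3.16 and -3.13 on the control arrays and 0.64, 0.97 and 1.0 on the S3d arrays, a difference of 4.02. Its rank from the most positive was 153 of 31422 tested probes. The difference was 3.91 after quantile normalization and 2.41, without a call, with normexp background correction. Ndufc2 was singled out for the size of this difference, so it is given as a description, without a test. The large value thus belongs to 1 of the 2 probes only, and the mean of both was 1.82. Of the 9 members with several probes, Cox6a2 and Ndufaf4 also had probes of opposite sign, and the other 6 had probes of 1 sign. Their probes differed by 0.08 (Ndufs8) to 1.25 (Uqcrb) on the log2 scale. For Atp5mc2 the probes gave -1.45 and -2.22. The probe sequences were not used here, so which transcript each probe meets is not given.

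**Figure D4:**
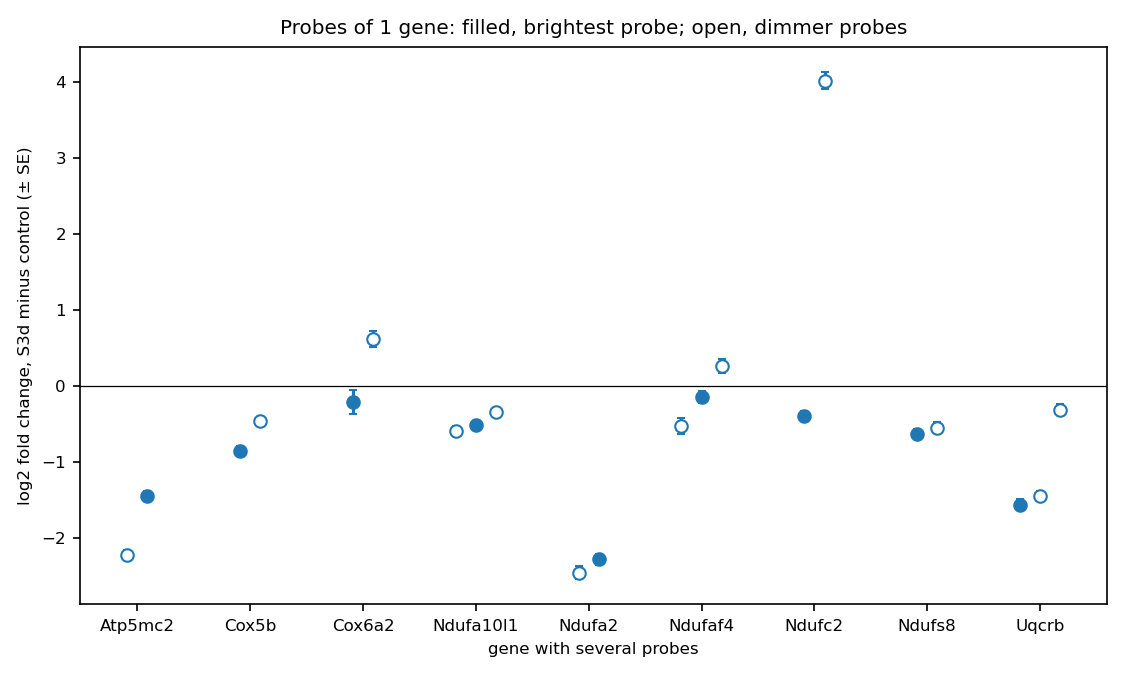
Log2 fold change (S3d minus control, relative to the 75th percentile, ± SE) of each probe of the 9 members with 2 or 3 probes; filled circles are the brightest probe of the gene, open circles the others. The dimmer probe of Ndufc2 stands at 4.02 and its brighter probe at -0.39.

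The 5 complex I assembly factors, which help to build the complex and are no part of it when finished, had 2 genes called higher and none lower. Ndufaf1 was at 0.15, 0.15 and -0.007 on the control arrays and 0.80, 0.75 and 0.82 on the S3d arrays, a log2 difference of 0.69 (limma adjusted p = 0.00026). Ndufaf7, a methyltransferase, was at 0.65 (limma adjusted p = 0.0012), and both were called higher. Ndufaf3 was at 0.52, under 1.5-fold, and was called after quantile normalization (0.62). Ndufaf4 (-0.14) and Ndufaf5 (-0.34) were not called, and the other probes of Ndufaf4 gave 0.27 and -0.52. The median of the 5 was 0.52, with none lower. It stayed above 0 under quantile normalization (0.62), cyclic loess (0.66), median centring (0.32) and normexp background correction (0.51), although no factor was called under either of the last pair. Their signals were lower than those of most subunits, at a mean log2 of 9.47 to 12.12.

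Complex II, or succinate dehydrogenase, belongs both to the TCA cycle and to the respiratory chain, and its 4 genes split. Sdhc, which encodes one of the membrane anchors that hold the haem, was at 4.61, 4.65 and 4.60 on the control arrays and 6.03, 5.79 and 5.92 on the S3d arrays. This gave a log2 difference of 1.29 (SE 0.081, limma adjusted p = 4.1e-05), and all S3d values lay above all control values. The other anchor, Sdhd, was at 7.02, 7.0 and 6.98 and 6.22, 5.98 and 6.11 in the same order, a log2 difference of -0.89 (limma adjusted p = 0.00015), but quantile normalization took it to -0.14, without a call. Sdha, the flavoprotein that oxidises succinate, was at -0.42, and Sdhb, the iron-sulphur subunit, was at -0.43. Neither reached 1.5-fold, and both turned above 0 after quantile normalization, at 0.40 and 0.23.

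In complex III, which passes electrons from ubiquinol to cytochrome c, 5 of 8 genes were lower and 1 was higher by the 75th percentile, with a median of -0.77, against -0.03 after quantile normalization and -0.94 with the filter on all 6 arrays, which leaves out Uqcrq. Uqcrb, a small subunit at the ubiquinone site, was at 8.03, 7.98 and 7.91 on the control arrays and 6.49, 6.34 and 6.41 on the S3d arrays, a log2 difference of -1.56 (SE 0.070, limma adjusted p = 1.7e-05). It was the only gene of the complex called lower after quantile normalization (-0.69). The other small subunits Uqcr10 (-1.34), Uqcr11 (-1.24) and Uqcrh (-0.94) were lower by the 75th percentile, and so was Uqcrfs1, the Rieske iron-sulphur protein (-0.60). The large core proteins were nearer to 0, with Uqcrc1 at 0.25 and Uqcrc2 at -0.14, neither called, and after quantile normalization they were at 0.58 and 0.52. Uqcrq, a subunit next to cytochrome b, is the 1 counted as higher, but it was not well above background on any control array. Its log2 difference of 0.92 (limma adjusted p = 0.018) rests on control values below the detection limit. Its S3d mean of -5.70 was 1.08-fold above the mean limit of the control arrays (-5.81), but below the limit of control array 1 (-5.43). Uqcrq passed the filter through the S3d arrays alone and was not called after quantile normalization (0.038). The call was also lost without S3d replicate 2 (limma adjusted p = 0.051) or S3d replicate 3 (limma adjusted p = 0.052).

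Complex IV, cytochrome c oxidase, held the largest difference among the 77 probes that stand for a gene. Cox7c, a small subunit found in all tissues, was at -0.091, 0.30 and 0.23 on the control arrays and 3.19, 3.37 and 3.43 on the S3d arrays. The log2 difference was 3.18 (SE 0.13, limma adjusted p = 1.4e-05), with 3.34 after quantile normalization and 3.32 with cyclic loess. Cox7c was 1 of 2 members still called with normexp background correction (3.04), the other being Ndufs1, where 5.88% of all probes were called. It rests on 1 probe, and 3 pseudogenes carry its symbol. The unscaled log2 mean of this probe on the control arrays was 8.76, against 14.69 to 18.11 for the other complex IV genes in use in all tissues. Of the other genes in use in all tissues, 7 were lower and 1 was not called. Cox8a was at -1.44, Cox6a1 at -1.41, Cox7b at -1.37, Cox6c at -1.33, Cox5b at -0.85, Cox4i1 at -0.82 and Cox7a2 at -0.60, and of these only Cox7b was called lower after quantile normalization (-0.70). Cox7b itself was at 7.17, 7.11 and 7.06 on the control arrays and 5.83, 5.66 and 5.73 on the S3d arrays, without overlap. Cox5a, a partner of Cox4i1 in the first steps of assembly, was at -0.11 and was called higher after quantile normalization (0.66).

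The isoforms of complex IV that are known from single tissues were not called by the 75th percentile on the probes that stand for them. Cox4i2, the lung form that is induced at low oxygen, was at 0.93, 0.85 and 0.94 on the control arrays and 0.90, 0.80 and 0.67 on the S3d arrays, and the groups overlapped. Cox6a2, the form of heart and skeletal muscle, had -0.21 on its brighter probe (limma adjusted p = 0.29) and 0.62 on its dimmer one, which was called higher (limma adjusted p = 0.0018) but not after quantile normalization (0.49). Cox6b2, the testis form, was at -0.51, also with overlap, and was called lower after quantile normalization (-0.68). Cox8b and Cox8c, forms of muscle and testis, were at the background. Cox7a2l, which joins complexes III and IV in supercomplexes, was at 0.20 and became 0.56 after quantile normalization. Cox6c-ps1, a pseudogene of Cox6c, had a log2 difference of 1.51 (limma adjusted p = 0.00015) against -1.33 for Cox6c itself, but its signal was low and normexp background correction turned its sign to -1.15. Pseudogenes with a symbol of this kind exist for 38 of the 79 members in the rat RefSeq table, and their RNA could reach the same probes. Cox7a1, Cox6b1 and Ndufa4l2 were not analysed here.

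Of the 15 ATP synthase genes, 11 were lower and 1 was higher by the 75th percentile (median -0.85), whereas 1 was lower and 2 were higher after quantile normalization (median 0.09). Most of their probes were among the 629 brightest tested, of which 68.0% were lower by the 75th percentile. The 5 genes of the F1 part, which makes the ATP, differed widely among themselves. Atp5f1b, the catalytic subunit, was at 5.25, 5.15 and 5.21 on the control arrays and 6.19, 6.24 and 6.28 on the S3d arrays, a log2 difference of 1.04 (SE 0.064, limma adjusted p = 3.9e-05). Atp5f1a, which alternates with it in the head, was at 5.79, 5.77 and 5.78 and 5.77, 5.76 and 5.77 in the same order, with overlapping groups and a log2 difference of -0.016 (limma adjusted p = 0.81). Atp5f1d, a small subunit of the central stalk, had the most negative difference among the probes that stand for genes of the complex, with 7.17, 7.15 and 7.16 on the control arrays and 5.69, 5.60 and 5.69 on the S3d arrays. The log2 difference was -1.50 (SE 0.060, limma adjusted p = 1.4e-05), and it was -0.82 after quantile normalization. Atp5f1e was at -1.34 and Atp5f1c at -0.22.

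For most genes of the membrane part and the peripheral stalk of ATP synthase, the call depended on the scaling. For the c-ring, the rotor that the protons turn, Atp5mc2 was at -1.45 and Atp5mc1 at -0.85, and after quantile normalization they were at -0.34 and 0.093, neither called. Cyclic loess kept Atp5mc2 lower (-0.60), and its other probe, at -2.22, was also called lower after quantile normalization (-1.68) and with cyclic loess (-1.66), and was at -0.38 without scaling. Atp5mc3 was not analysed here. Atp5me, a small membrane subunit, was at -1.43 and -0.14 by the same scales. Of the 4 genes of the peripheral stalk, which keeps the head from turning, Atp5po (-0.93), Atp5pb (-0.72) and Atp5pd (-0.59) were called lower by the 75th percentile and all were above 0 after quantile normalization. Atp5pf stood at 0.026 with overlapping groups, and at 0.73 after quantile normalization. Atp5if1, which blocks the enzyme from splitting ATP when the proton gradient fails, was at 7.36, 7.35 and 7.32 on the control arrays and 6.42, 6.47 and 6.45 on the S3d arrays. Its log2 fold change was -0.90 (limma adjusted p = 4.2e-05), and -0.13 after quantile normalization, without a call.

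**Figure D5:**
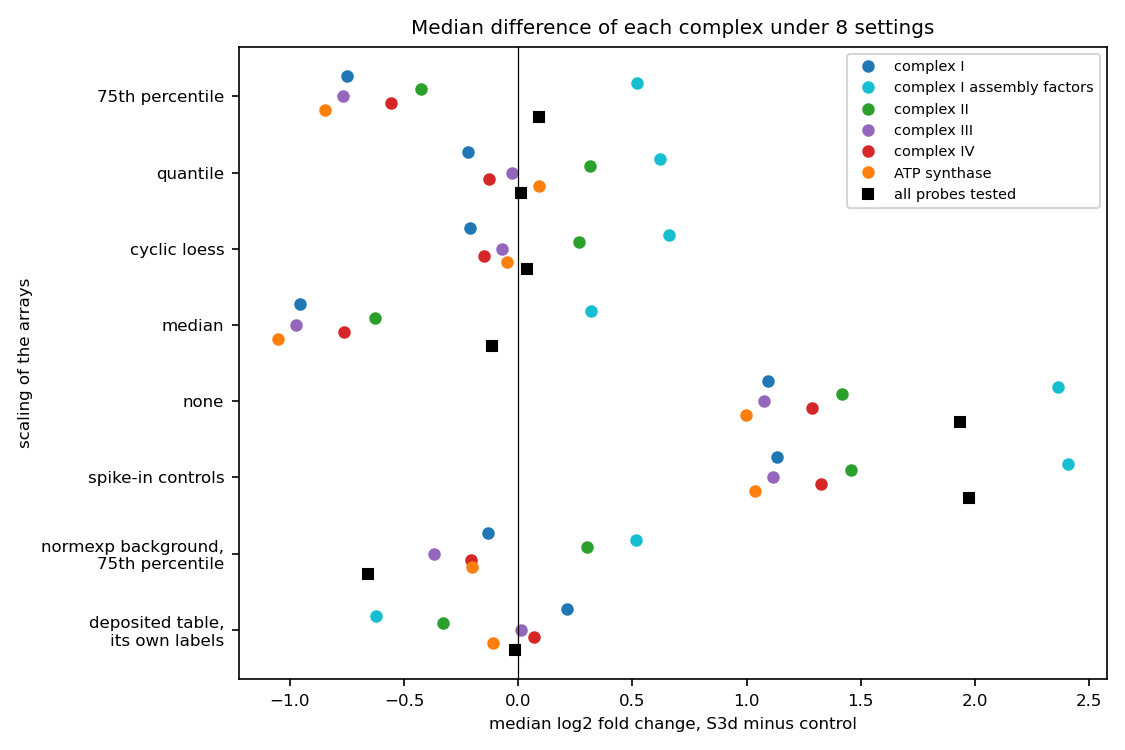
Median log2 fold change (S3d minus control, x axis) of each complex and of all tested probes (black squares) under 8 settings (y axis); the last row uses the deposited table with its own labels. The medians of the subunit complexes lie from -0.85 to -0.42 with the 75th percentile and from 1.00 to 1.42 without scaling, and the assembly factors lie to the right of all subunit complexes in the first 7 rows.

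What the members share beyond their symbols was read from their promoters, which RefSeq gives for 69 of the 79 genes in the rat build GRCr8 (250 bases before to 50 after the gene start). Nuclear respiratory factor 1 (NRF1) and GABP, also called nuclear respiratory factor 2, are known activators of nuclear genes of respiration. The NRF1 letters, GCGC and TGCGC with 1 free base between them, searched on both strands, were found in 14 member promoters (20.3%), against 4.25% of all 33469 promoters. The GABP letters CCGGAAG were found in 21 (30.4%, against 8.75%), and the YY1 letters AAGATGG in 14 (20.3%, against 7.01%). The letters TATAAA were found in 5 (7.25%, against 14.2%). In all, 34 of the 69 promoters held the NRF1 or the GABP letters. Of the 14 with the NRF1 letters, 8 were called lower and none higher by the 75th percentile. Of the 21 with the GABP letters, 14 were lower and 3 higher, among them Uqcrq, while of all 69 members with a promoter 38 were lower and 9 higher. Uqcrq was not above background on the control arrays. After quantile normalization, only Ndufa11 and Ndufa12 of those with the NRF1 letters were called, both lower. Of those with the GABP letters, only Ndufa2 was then called lower, and Atp5pf, Ndufaf1 and Ndufs1 were called higher. No set of letters contains another, and a match is a description, not a binding site. The stretches below lie before the gene start of members described above, in lower case with a match in capitals. Ndufa11 holds another match that overlaps the one shown, and Cox8a another one nearer to the gene. The NRF1 letters stand in 3 members that were lower, and the GABP letters in Ndufs1, which was higher, and Cox8a, which was lower.
Ndufa11 (chr9:1637487-1637556, plus strand): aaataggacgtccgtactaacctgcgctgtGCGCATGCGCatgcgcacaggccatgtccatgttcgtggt
Ndufa12 (chr7:30658174-30658243, plus strand): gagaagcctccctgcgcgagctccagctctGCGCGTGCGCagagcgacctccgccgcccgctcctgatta
Atp5mc2 (chr7:135678235-135678304, minus strand): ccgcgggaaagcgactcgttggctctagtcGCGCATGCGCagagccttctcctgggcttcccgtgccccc
Ndufs1 (chr9:72073768-72073834, minus strand): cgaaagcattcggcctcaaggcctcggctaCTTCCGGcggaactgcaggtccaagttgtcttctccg
Cox8a (chr1:213833644-213833710, minus strand): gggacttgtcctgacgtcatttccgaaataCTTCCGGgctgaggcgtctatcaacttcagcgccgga

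The genes of these regulators were measured on the same arrays. Of 11 genes of mitochondrial biogenesis and transcription, 1 was higher and 2 were lower by the 75th percentile (median -0.09). Gabpa, the DNA-binding subunit of GABP, had a log2 difference of 0.64 (adjusted p = 0.00016). Ppargc1a, the coactivator known as PGC-1alpha, was at -0.93 (adjusted p = 0.0011) and was also called lower after quantile normalization (-0.95). Esrra, a nuclear receptor that works with it, was at -1.01 (adjusted p = 5.7e-05) but was not called after quantile normalization (-0.40). Nrf1 at 0.50 and Tfam, which packs and transcribes mitochondrial DNA, at 0.40 stayed under 1.5-fold, and Tfam was called higher after quantile normalization (0.72). All adjusted p-values here come from the same limma comparison over 31422 probes.

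Other genes of the mitochondrion also differed in both directions. Of 32 measured assembly factors and electron carriers outside the rule, 7 were higher and 11 lower (median -0.16), and 7 and 8 after quantile normalization. Atpaf1, which helps to assemble the F1 head, was at 1.56 (adjusted p = 4.7e-05) and Sco1, a copper chaperone of complex IV, at 1.47 (adjusted p = 3.3e-05). Cox17, the copper donor to Sco1, was at -1.48 (adjusted p = 4.3e-05) and Ecsit, which takes part in complex I assembly, at -1.35 (adjusted p = 2.4e-05). Of the 13 TCA cycle genes, 1 was higher and 6 were lower (median -0.57). Citrate synthase (Cs) was at -1.09 (adjusted p = 4.6e-05) and Suclg2 at -1.04 (adjusted p = 3e-05). After quantile normalization 4 were higher and 2 lower. Of 13 other mitochondrial membrane proteins, 2 were higher and 5 lower (median -0.40), but 3 were higher and 2 lower after quantile normalization (median 0.17). Among them were the import component Timm44 at 1.66 (adjusted p = 0.00015), the import pore Tomm40 at 1.08 (adjusted p = 4.1e-05), the outer membrane channel Vdac1 at -1.87 (adjusted p = 1.3e-05) and Tomm22 at -1.03 (adjusted p = 2.9e-05).

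Markers of the cells in the wall were measured on the same scale, and all 13 markers of absorptive enterocytes on the array were well above background on all 6 arrays. Of these, 7 were lower and 1 was higher (median -0.70), and 1 and 2 after quantile normalization (median 0.12). Their summed signal, in multiples of the 75th percentile, was 4120 to 4560 on the control arrays and 1870 to 1920 on the S3d arrays. The brightest of these markers, Apoa4, Fabp1, Apoa1 and Fabp2, weigh most in this sum. After quantile normalization they were at -0.073, -0.33, -0.21 and 0.12, none called. Of 6 tested goblet and Paneth cell markers 4 were lower, and their summed signal was 1780 to 1870 and 682 to 695, while after quantile normalization 2 were lower and 1 higher and the median went from -0.91 to -0.02. Defa5 was not above background. Of 8 smooth muscle markers 4 were lower and 1 higher (3 and 2 after quantile normalization), with summed signals of 141 to 168 and 127 to 149. Of 8 leukocyte markers 2 were lower and 1 higher (22.9 to 30.7 and 18.3 to 21.0). Of 5 proliferation markers 1 was lower (48.8 to 53.5 and 44.5 to 48.1), and after quantile normalization 1 was lower and 2 were higher. Both red blood cell markers were lower, Hbb at -3.76 (adjusted p = 0.0002) and Alas2 at -1.65 (adjusted p = 0.00029), with summed signals of 3.12 to 3.6 and 0.37 to 0.69. Of 6 markers of skeletal or heart muscle, 2 were higher (3.72 to 4.36 and 7.66 to 8.48), led by Actc1 at 3.05 (adjusted p = 0.00022). The part of these cell types in the members' differences was not tested.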

How the data were processed

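Jejunal RNA of 2 groups was measured with 3 arrays each. The authors deposited scanner files with intensity values from Agilent Feature Extraction 10.7 (per the labels), which correct for background but leave the arrays unnormalized, together with spot flags. They also deposited 1 table of quantile-normalized log2 values with the group labels exchanged, which served as an alternative. The program behind that table is not given in the sources used here.

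After control spots and outlier spots were dropped and spots of 1 probe averaged, the 75th percentile of each array was subtracted from its log2 intensity. A probe was tested if all 3 arrays of either group showed it well above background. Tests used limma 3.58.1 under R 4.3.3 without a block, adjusted by Benjamini-Hochberg over 31422 probes, and a call needed p below 0.05 after adjustment and 1.5-fold. The code was tested on simulated data, and the number of arrays limits the precision. Names, promoters and pseudogenes came from RefSeq tables of the rat build GRCr8. Where the annotation of a probe differed between the scanner files of the groups, that of the control files was used.

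Alternatives changed the scaling (quantile, median, none), the background correction (normexp with an offset of 50 on the median signal), the filter on faint probes, the treatment of outlier spots, the source (the deposited table), the fit (replicate block, trend, weights, analysis of variance), the probe per gene and the threshold, or left out each array. Named were, in each complex, the 3 most positive and 3 most negative members above background on all arrays, isoform pairs, the c-ring genes, Atp5if1, Ndufc2, members with probes of opposite sign and, of the related lists, up to 2 called genes at each end. Further subunits were named after their values were seen. Some genes that the rule names or the lists hold are not reported here. The members, lists and rules were chosen with earlier results of these data known.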

Additional observations from a re-analysis of the deposited data

How the results depend on the processing

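The counts and the median of the members (10 higher, 44 lower, median log2 fold change -0.69) depended on how the arrays were scaled and their background corrected. Quantile normalization gave 13 higher, 10 lower and a median of -0.061 (all probes 7615 higher and 7636 lower). Cyclic loess gave 14, 13 and -0.094 (all probes 8046 and 7316), and median centring 8, 52 and -0.89 (all probes 7234 and 9464). Normexp background correction gave 2, 0 and -0.18, where 568 of all probes were called higher and 1280 lower. There, differences such as 1.81 for Sdhc and -1.73 for Ndufa2 were not called, so fewer calls do not mean that all differences vanished. At an unadjusted p under 0.01 and 1.5-fold by limma, the counts of members were 9 higher and 44 lower on the main scale. The direction turned without scaling (62, 0 and 1.15), with scaling to the spike-in controls (63, 0 and 1.2) and in the deposited table by its own labels (10, 14 and 0.037). The spike-in scaling used the mean of all 10 spike-in probes, faint ones included. A faint one differed by 3.09 between the groups, while the 7 bright ones differed by -0.87 to -0.35. The result of this scaling therefore lay close to that without scaling. The unfiltered table gave a median of -0.63, the dimmest probe of each gene -0.60, and the members without the pseudogene and the assembly factors -0.75. A threshold of 2-fold left 6 higher and 23 lower. Leaving out each array in turn gave 9 to 10 higher, 41 to 45 lower and a median of -0.70 to -0.66. Cyclic loess, the spike-in scaling, the dimmest probe and the list without the pseudogene and assembly factors were chosen after seeing the data. The cause of these changes was not tested. The replicate numbers did not pair the samples (correlation of deviations 0.020, 0.022 and -0.049), and the fit with the replicate block gave 10 higher, 44 lower and a median of -0.69 and changed no call of a gene named by the rule. Array weights and the intensity trend changed no such call either, and nor did the one-way analysis of variance, by which 9 members were higher, without Uqcrq. Faint signal limits Uqcrq, Cox8b and Cox8c.

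Differences of named genes and of complexes turned as follows, on the log2 scale. Signs that turned without scaling between arrays were complex I (median) 1.09, complex II (median) 1.42, complex III (median) 1.08, complex IV (median) 1.29, ATP synthase (median) 1.00, Ndufa4 1.66, Ndufc2 1.45, Ndufb8 0.21, Ndufaf4 1.71, Ndufaf5 1.51, Sdha 1.43, Sdhb 1.41, Sdhd 0.95, Uqcrc2 1.71, Uqcrfs1 1.24, Uqcr11 0.60, Uqcr10 0.50, Uqcrb 0.29, Cox4i2 1.72, Cox6a2 1.64, Cox6b2 1.33, Cox7a2 1.24, Cox4i1 1.03, Cox7b 0.47, Cox6a1 0.44, Cox8a 0.41, Atp5f1a 1.83, Atp5mc1 1.00, Atp5if1 0.95, Atp5me 0.41, Atp5mc2 0.39 and Atp5f1d 0.34. Signs that turned in the deposited table by its own labels were complex I (median) 0.21, complex I assembly factors (median) -0.62, complex III (median) 0.014, complex IV (median) 0.067, Ndufs4 -1.49, Ndufs1 -1.68, Ndufa9 -1.26, Ndufb8 0.64, Ndufa11 1.63, Ndufa2 2.01, Ndufaf1 -0.71, Ndufaf7 -0.65, Ndufaf3 -0.62, Ndufaf5 0.16, Sdhc -1.85, Sdhd 0.13, Uqcrc1 -0.58, Uqcr11 0.46, Uqcr10 0.20, Uqcrb 0.68, Cox7c -3.34, Cox6c-ps1 -1.08, Cox7a2l -0.56, Cox4i2 0.097, Cox6a2 0.21, Cox6b2 0.68, Cox4i1 0.25, Cox7b 0.69, Cox6a1 0.037, Cox8a 0.41, Atp5f1b -1.64, Atp5pf -0.74, Atp5if1 0.12, Atp5me 0.10, Atp5mc2 0.32 and Atp5f1d 0.81. Signs that turned with scaling to the spike-in controls were complex I (median) 1.13, complex II (median) 1.46, complex III (median) 1.12, complex IV (median) 1.33, ATP synthase (median) 1.04, Ndufa4 1.70, Ndufc2 1.49, Ndufb8 0.25, Ndufaf4 1.75, Ndufaf5 1.55, Sdha 1.47, Sdhb 1.45, Sdhd 0.99, Uqcrc2 1.75, Uqcrfs1 1.28, Uqcr11 0.64, Uqcr10 0.54, Uqcrb 0.33, Cox4i2 1.76, Cox6a2 1.68, Cox6b2 1.37, Cox7a2 1.28, Cox4i1 1.07, Cox7b 0.51, Cox6a1 0.48, Cox8a 0.45, Atp5f1a 1.87, Atp5mc1 1.04, Atp5if1 0.99, Atp5me 0.45, Atp5mc2 0.43 and Atp5f1d 0.38. Signs that turned under quantile normalization were complex II (median) 0.32, ATP synthase (median) 0.093, Ndufa4 0.52, Ndufc2 0.17, Ndufaf4 0.023, Sdha 0.40, Sdhb 0.23, Uqcrc2 0.52, Uqcrfs1 0.008, Cox7a2 0.10, Atp5f1a 0.58 and Atp5mc1 0.093. Signs that turned with normexp background correction were complex II (median) 0.30, Ndufs4 -0.064, Ndufa4 0.40, Ndufc2 0.31, Ndufaf4 0.32, Ndufaf5 0.21, Sdha 0.29, Sdhb 0.32, Uqcrc2 0.47, Uqcrfs1 0.14, Cox6c-ps1 -1.15, Cox4i2 0.013, Cox7a2 0.062 and Atp5f1a 0.58. Signs that turned under cyclic loess were complex II (median) 0.27, Ndufa4 0.48, Ndufc2 0.19, Ndufaf4 0.072, Sdha 0.33, Sdhb 0.21, Uqcrc2 0.49, Uqcrfs1 0.018, Cox7a2 0.049 and Atp5f1a 0.57. Signs that turned with the mean of all probes of a gene were Ndufc2 1.82 and Cox6a2 0.21. Signs that turned under median centring were Cox7a2l -0.003 and Atp5pf -0.18. Leaving out each array in turn kept Atp5pf, at 0.026, between -0.008 and 0.055.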
